A study of Mus musculus with 8 samples.

Results

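Interferon-stimulated genes (ISGs), 44 of the 21751 protein-coding mouse genes, were described by the chromatin loops of their promoters. The 44 genes were given as a list by name, without a cut on any measured value. Earlier results of these data were known when the list was chosen. H3K27ac HiChIP had been run in HPC-7, a mouse haematopoietic progenitor line with very low endogenous CEBPA. HiChIP joins neighbouring pieces of chromatin and selects them with an antibody, here to H3K27ac, which marks promoters and enhancers in use. In this study the antibody was added before the joining. Cells were transduced with either p42, the full-length isoform of the transcription factor CEBPA, or p30, its shorter isoform, each from a retroviral vector, and sorted for GFP. The study describes isoforms fused to ERT2, which 4-hydroxytamoxifen brings into the nucleus, and a constitutive form; which form these libraries carry, and whether 4-hydroxytamoxifen was added, is not given in their labels. Cells were untreated (UT) or exposed to lipopolysaccharide (LPS), a bacterial wall component, at 100 ng/mL for 2 h. There were 8 libraries, 2 for each combination of isoform (p30, p42) and treatment (UT, LPS), and 1 pooled loop list was deposited for each group. The spread between replicates could therefore not be measured, no test was possible, and every difference compares these pooled libraries.

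Interferons are secreted when Toll-like or nucleic acid receptors are engaged. They bind receptors that activate JAK kinases, and a complex that includes STAT2 and IRF9 then binds a promoter element called the interferon-stimulated response element (ISRE). A second promoter element of interferon responses is called GAS. The induced genes block viral entry, degrade or sequester viral RNA, tag proteins with ISG15, guard phagosomes, or process antigen. Toll-like receptor 4, the receptor for LPS, reaches the same genes through the adaptor TICAM1 and interferon beta.

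A promoter loop is a listed pair of 5 kb bins (all coordinates are GRCm39, mm39), at a q-value under 0.01, of which one holds the gene's canonical start site. Since the lists held between 78591 and 158233 loops, numbers of loops were compared in lists of equal size, cut to the 78591 most significant pairs by q-value. Where 4 values follow one another without labels, the order is p30 (UT, LPS) and then p42 (UT, LPS). Coverage is the number of reads in a bin. It is known only for bins in a listed loop, and was scaled between lists by the median ratio over start-site bins. All 9 progenitor markers had promoter loops in all 4 lists, whereas 8 of 13 markers of other cell types had none in any list. Of these 13, the macrophage gene Adgre1 alone had loops in every list.

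Promoter loops were found at 33 of the 44 ISGs (75%) in at least 1 list, against 48.3% of all protein-coding genes. The 11 ISGs without any loop were the RNA-binding Ifit1 and Ifit3, the 2'-5'-oligoadenylate synthetase genes Oas1a, Oas3 and Oasl2, the sensors Ifih1 and Zbp1, the GTPase gene Gbp7, and Ifi44, Sp100 and Trim21. A promoter without a listed loop may still make contacts, as the lists hold significant pairs alone. Loops were present in all 4 equal-size lists at 17 ISGs (51.5% of those with loops), against 60.3% of all genes with loops. The 33 ISGs had 184 different loops over the deposited lists, of which 34 were in all 4 lists and 78 in 1 list. Clusters within 1 Mb held 29 of the 44 genes, in 11 clusters, and 3 pairs of ISGs (Igtp and Irgm2, Parp9 and Dtx3l, Psmb9 and Tap1) shared a start-site bin and so all their values.

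**Figure D1:**
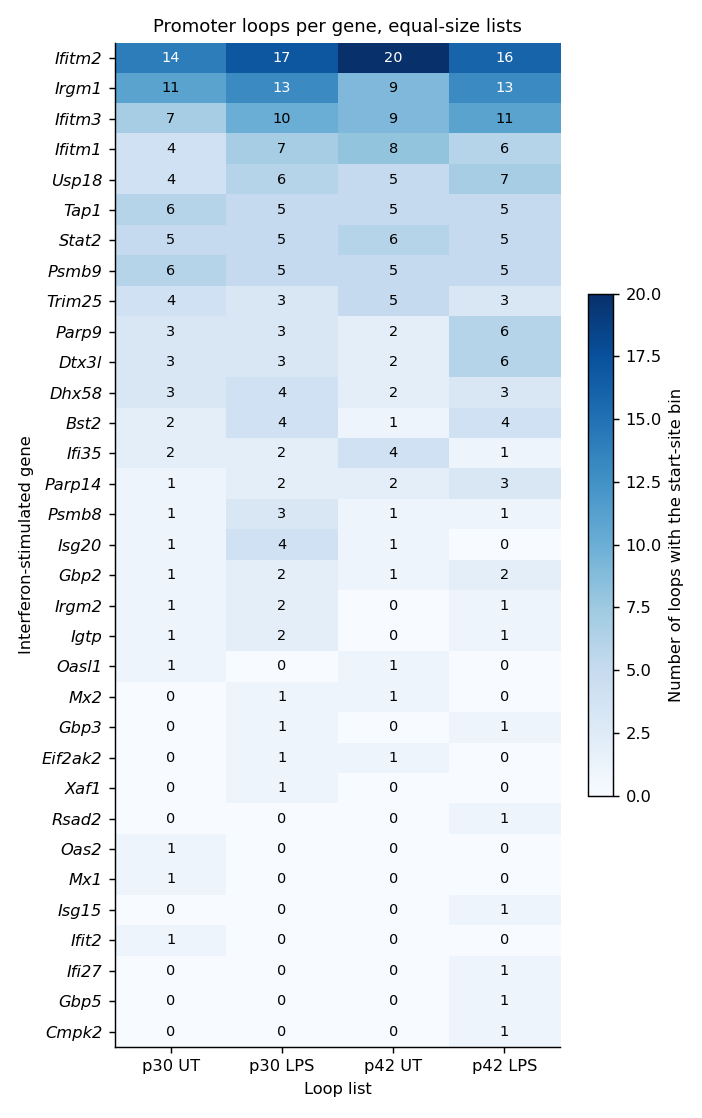
Number of promoter loops (colour and digits) of the 33 ISGs with a loop (rows) in the 4 equal-size lists (columns). Ifitm2 had the most in each list, between 14 and 20, and the lower rows hold genes with 1 loop in 1 or 2 lists.

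Each line below gives the 200 bases just upstream of the canonical start site, 5′ to 3′ on the gene's strand (GRCm39). Capitals mark matches to ISRE (GAAA, any 2 bases, GAAA), GAS (TTCNNNGAA), AP-1 (TGANTCA) or CEBP (TTGCNNAA) letters on either strand. The first 4 genes are shown because their start-site bins had at least 1.5-fold more scaled coverage after LPS in p42 cells and hold a match. Rsad2 is shown as a gene with a promoter loop in the p42 LPS list alone, and Irgm1 for its far loops.
Isg15: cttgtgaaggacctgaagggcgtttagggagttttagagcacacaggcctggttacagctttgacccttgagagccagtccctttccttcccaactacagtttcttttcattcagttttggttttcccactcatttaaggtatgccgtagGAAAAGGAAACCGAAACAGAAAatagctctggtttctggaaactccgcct
Usp18: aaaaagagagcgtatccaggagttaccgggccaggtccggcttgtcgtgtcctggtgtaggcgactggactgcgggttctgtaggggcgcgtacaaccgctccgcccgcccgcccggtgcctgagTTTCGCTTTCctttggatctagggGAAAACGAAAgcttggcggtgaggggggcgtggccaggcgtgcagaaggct
Bst2: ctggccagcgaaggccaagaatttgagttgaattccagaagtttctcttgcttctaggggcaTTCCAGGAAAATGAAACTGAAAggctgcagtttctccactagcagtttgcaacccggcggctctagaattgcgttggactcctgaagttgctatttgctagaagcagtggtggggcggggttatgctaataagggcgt
Gbp2: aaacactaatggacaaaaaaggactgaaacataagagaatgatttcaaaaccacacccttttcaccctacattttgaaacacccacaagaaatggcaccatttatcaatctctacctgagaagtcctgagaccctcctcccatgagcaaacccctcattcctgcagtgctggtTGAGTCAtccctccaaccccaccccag
Rsad2: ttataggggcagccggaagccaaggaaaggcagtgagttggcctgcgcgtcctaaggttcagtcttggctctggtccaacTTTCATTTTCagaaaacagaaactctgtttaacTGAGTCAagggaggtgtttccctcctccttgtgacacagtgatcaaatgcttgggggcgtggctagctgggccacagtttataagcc
Irgm1: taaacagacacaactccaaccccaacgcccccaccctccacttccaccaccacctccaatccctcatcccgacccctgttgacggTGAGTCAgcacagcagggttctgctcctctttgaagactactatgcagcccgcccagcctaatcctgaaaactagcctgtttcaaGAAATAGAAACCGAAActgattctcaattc
The windows lie at chr4:156285304-156285503 (Isg15, minus strand), chr6:121222657-121222856 (Usp18, plus), chr8:71990115-71990314 (Bst2, minus), chr3:142326149-142326348 (Gbp2, plus), chr12:26506452-26506651 (Rsad2, minus) and chr11:48762248-48762447 (Irgm1, minus).

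In Isg15, which encodes a ubiquitin-like protein, 3 overlapping ISRE matches began 50, 44 and 38 bases upstream of the start site. Usp18, the protease that removes ISG15 from proteins and dampens interferon receptor signalling, had 2 ISRE matches, 75 and 51 bases upstream. Bst2 (tetherin, which holds budding virions at the cell surface) had 2 overlapping ISRE matches and a GAS match that overlapped the first of them. Gbp2, an interferon-induced guanylate-binding GTPase, had an AP-1 match 27 bases upstream and neither an ISRE nor a GAS match in this window. Rsad2 (viperin, which makes a chain-terminating nucleotide) had an ISRE and an AP-1 match, and Irgm1, an immunity-related GTPase that acts on phagosomes and autophagy, had 2 overlapping ISRE matches and an AP-1 match.

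Over the 200 bases upstream of every canonical start site, ISRE letters were found at 12 of 44 ISGs (27.3%) and at 2.45% of all 21751 genes. GAS letters were found at 8 ISGs (18.2%) against 6.14%, AP-1 letters at 7 (15.9%) against 4.93%, and CEBP letters at 1 ISG, Sp100 (2.27%), against 7.23%. ISRE and GAS matches can overlap, as in Bst2. In the RefSeq promoter windows (GRCm38.p6, 250 bases before to 50 after the start), which included 35 of the ISGs, ISRE letters were found at 20 ISGs (57.1%) against 3.99% of all 27025 genes there, with Gbp2 among them, GAS letters at 12 (34.3%) against 9.55%, AP-1 letters at 8 (22.9%) against 8.97% and CEBP letters at 2 (5.71%) against 12.2%. A match is a string of letters, not a site shown to be bound. The ISGs are known for ISREs, so that the share with one describes the list and is no result of the HiChIP data.

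**Figure D2:**
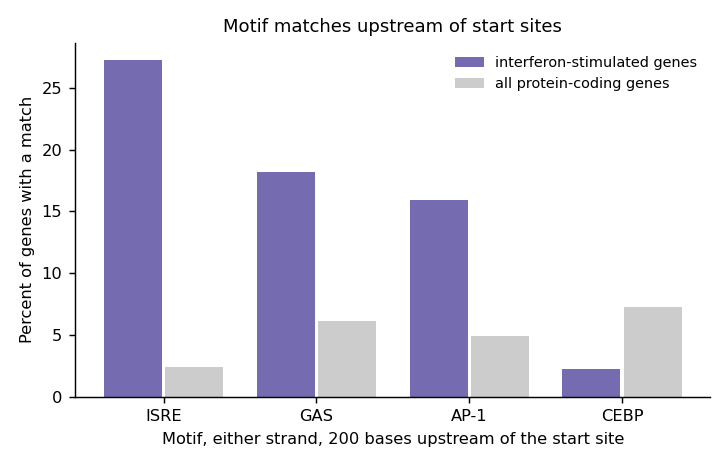
Percent of genes with a match to each motif (groups of bars) in the 200 bases upstream of the start site, for the 44 ISGs (purple) and all 21751 protein-coding genes (grey). ISRE was found at 27.3% of ISGs and CEBP at 2.27%.

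Coverage of the start-site bin was higher after LPS at most ISGs that could be compared. In p42 cells 19 of 20 ISGs had a ratio of LPS over UT above 1, against 3586 of 7419 genes, with a median log2 ratio of 0.27 against -0.01 for all genes. In p30 cells the ratio was above 1 at 14 of 20 ISGs and 3424 of 7202 genes, with a median of 0.20 against -0.01. The scaling sets the level of all genes. Scaled by modelled contacts, the medians in p42 cells were -0.18 for ISGs and -0.46 for all genes, and those in p30 cells 0.47 and 0.25, so that the sign for p42 cells turned. Rescaling moves all genes by the same amount and leaves the gap between ISGs and all genes as it is. The directions below are thus relative to all start-site bins. As the libraries are from bulk cells, more cells with the mark and more mark per cell cannot be told apart.

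At a ratio of at least 1.5, the p42 cells had 6 ISGs higher after LPS and 0 lower, where 1.36% of all 7419 genes were higher and 0.364% lower. The 6 were Gbp2, Parp14, Isg15, Usp18, Trim25 and Bst2. Scaled by the mean of peak bins, 3 ISGs were higher in p42 cells, where 0.701% of all genes were. By modelled contacts 0 ISGs were higher and 0 lower, where 0.0674% of all genes were higher and 24% lower. The p30 cells had 1 ISG higher, Gbp2, and 0 lower, where 1.21% of 7202 genes were higher and 0.555% lower. By modelled contacts 4 of 20 were higher in p30 cells, where 8.15% of all genes were, so that the isoform with more ISGs past the threshold was p30 under that scaling. Among the 19 ISGs with coverage in all 4 lists, and under the start-site scaling, the LPS ratio was larger in p42 than in p30 at 15 (78.9%), against 46.6% of 6331 genes, and at 12 of 16 with each bin counted once. The median log2 ratio of those 19 was 0.20 in p30 and 0.19 in p42 cells.

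Gbp2 had a scaled coverage of 2272 reads untreated and 3766 after LPS with p30, and 1701 and 3275 with p42. Both LPS values lay above both untreated ones, at 1.66-fold in p30 (95% interval 1.57 to 1.75) and 1.93-fold in p42 cells (1.82 to 2.04). Intervals of folds cover counting error only. Parp14, a mono-ADP-ribosyltransferase that promotes interferon responses, had 1678 reads untreated and 2077 after LPS with p30, and 1071 and 2014 with p42. Its value was lowest in p42 UT, the LPS values were close to each other, and the ratio was 1.88 in p42 (1.75 to 2.02) and 1.24 in p30 cells (1.16 to 1.32).

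Isg15 had 1870 reads in p42 UT and 3498 in p42 LPS, a 1.87-fold ratio (1.77 to 1.98), and no coverage was listed in either p30 group. For Usp18 the values were 3128 untreated and 3365 after LPS with p30, and 2504 and 3988 with p42. The ratio was 1.59 in p42 (1.52 to 1.67) and 1.08 in p30 cells (1.02 to 1.13), and the untreated level was higher with p30. Trim25, the E3 ligase that ubiquitinates the RNA sensor RIG-I, had 3622 reads untreated and 4163 after LPS with p30, and 4163 and 6397 with p42. Under the start-site scaling the p42 LPS value stood apart from the others, at 1.54-fold above p42 UT (1.48 to 1.60). Before scaling, coverage was 5356 reads in p42 UT and 5008 in p42 LPS.

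Bst2 had 3259 reads untreated and 4612 after LPS with p30, and 2933 and 4430 with p42. Under the start-site scaling the LPS ratio was here nearly the same in both isoforms, 1.42 (1.35 to 1.48) in p30 and 1.51 (1.44 to 1.58) in p42 cells. The value 1.5 separates them only by the threshold. Stat2, a subunit of the factor that binds the ISRE, lay just below it in p42 cells with a ratio of 1.41, and its coverage was 2695 reads untreated and 3342 after LPS with p30, and 2590 and 3650 with p42. Lowest after LPS in p30 cells was Psmb8, with a ratio of 0.82.

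**Figure D3:**
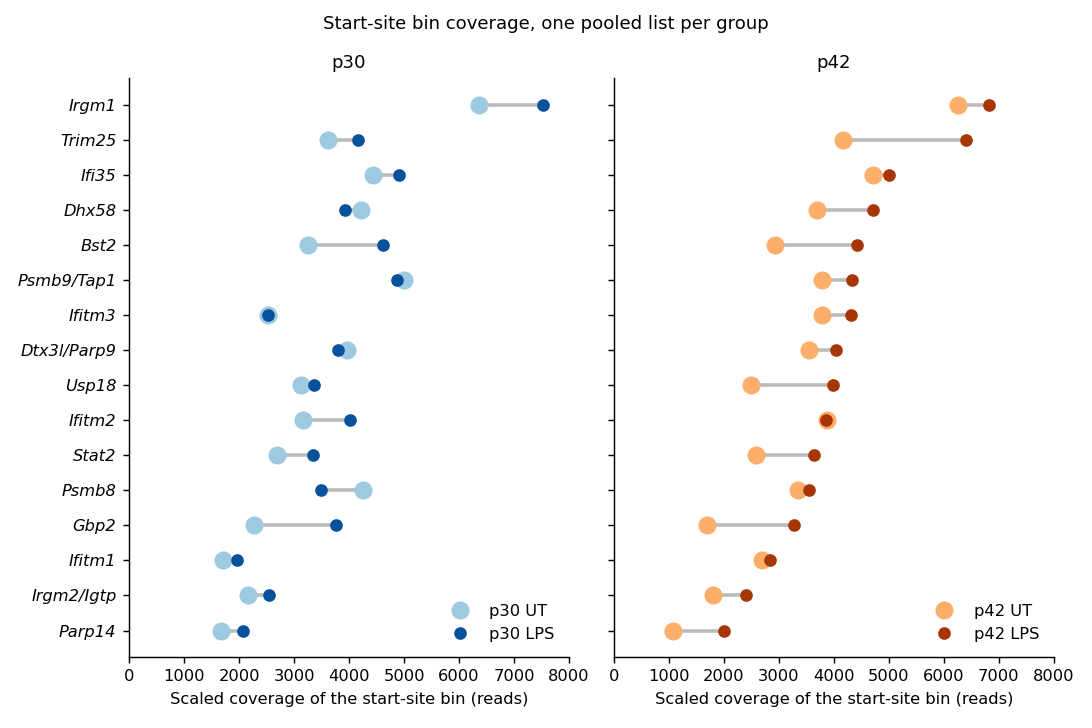
Scaled coverage (reads) of the start-site bins of ISGs with coverage in all 4 lists, in p30 (left) and p42 cells (right), with UT as light and LPS as dark points. In p42 cells Ifitm2 alone, at 3872 and 3859 reads, did not have the higher value after LPS under this scaling.

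**Figure D4:**
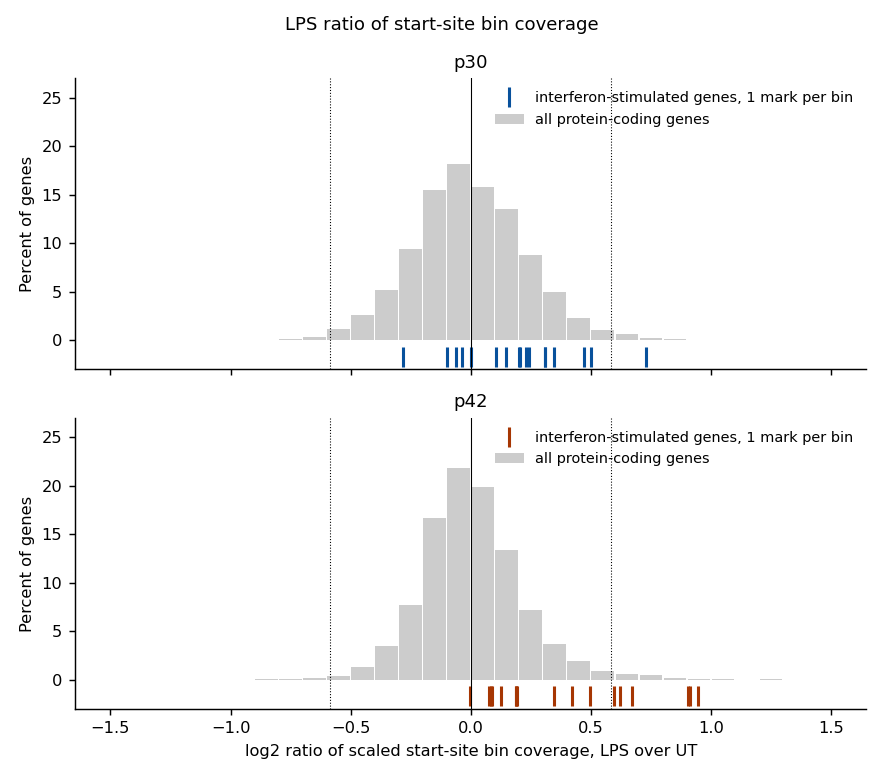
Distribution over all genes (grey bars, percent of genes) of the log2 ratio of scaled start-site bin coverage, LPS over UT, with 1 mark per ISG bin, in p30 (top) and p42 cells (bottom). Dotted lines mark 1.5-fold; the ISG medians over genes were 0.20 and 0.27 (0.47 and -0.18 when scaled by modelled contacts).

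Numbers of promoter loops were compared next. In p30 cells 17 ISGs had more loops after LPS, 7 fewer and 4 as many, and in p42 cells 17 had more, 9 fewer and 3 as many, with a median difference of 1 in both and of 0 over all genes. Over all genes, 3807 of 9005 had more and 3311 fewer in p30 cells, and 2758 of 8666 had more and 4024 fewer in p42 cells. At a difference of at least 3 loops, 4 of 28 ISGs were higher in p30 LPS and 0 lower, where 10.7% of all genes were higher and 7.38% lower. The 4 were Isg20, Ifitm1, Ifitm2 and Ifitm3. In p42 cells 4 of 29 ISGs were higher (Irgm1, Bst2, and Parp9 with Dtx3l in 1 bin) and 2 lower (Ifitm2 and Ifi35), where 4.98% of all genes were higher and 11.8% lower. No ISG passed 3 loops the same way in both isoforms, and Ifitm2 did so in opposite ways. In the lists as deposited, of which the p42 UT list is the longest, 10 of 29 ISGs were lower in p42 LPS and 2 higher, where 51% of all genes were lower and 0.121% higher.

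Loops in LPS lists alone were found at 7 ISGs (21.2% of the 33), against 8.26% of all genes with loops: Gbp3, Gbp5, Isg15, Rsad2, Cmpk2, Ifi27 and Xaf1. All but Gbp3 had a loop in 1 list. Untreated lists alone had loops of 4 ISGs (12.1%), Oasl1, Oas2, Mx1 and Ifit2, against 9.44%. In the lists as deposited, 6 of the 7 remained (18.2%, against 3.62% of all genes with loops), and Isg15 also had its loop in p42 UT. When loops of the neighbouring bins were counted as well, 4 ISGs had loops in LPS lists alone (Gbp3, Gbp5, Xaf1 and Ifi27), or 11.4% of the 35 with loops, against 6.28% of genes, so that the neighbouring bins of Rsad2, Cmpk2 and Isg15 had loops in untreated lists.

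The isoforms were compared in the same way. In untreated cells 2 of 26 ISGs had at least 3 more loops in p42, Ifitm1 and Ifitm2, and 0 had fewer, where 12% of all genes were higher and 7.26% lower. In the lists as deposited 11 of 27 ISGs had at least 3 more in p42, where 46.6% of all genes did. After LPS 2 of 29 were higher in p42, Parp9 with Dtx3l in 1 bin, and 1 was lower, Isg20, where 7.12% of all genes were higher and 13.4% lower. Loops in p42 lists alone were found at 5 ISGs (15.2%) against 7.57%, and in p30 lists alone at 4 (12.1%) against 11% of all genes with loops. In the lists as deposited the p42 share was 15.2% against 11.4% of genes, and the p30 share 12.1% against 5.33%. With the neighbouring bins counted, 1 ISG (Ifi27) had loops in p42 lists alone, 2.86% against 5.53% of genes, so that the ISG share then lay below that of all genes.

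Coverage was at least 1.5-fold higher in p42 UT than in p30 UT at Ifitm1 and Ifitm3 among 21 ISGs, where 2.47% of all genes were higher, and lower at Parp14, where 2.39% were lower. Scaled by peak bins or by modelled contacts 0 ISGs were lower, where 1.34% and 0.311% of all genes were. After LPS, Ifitm3 and Trim25 were higher in p42 among 20 ISGs, where 2.76% of genes were higher, and 0 were lower, where 1.17% were. The median log2 ratio of p42 over p30 was -0.19 in untreated cells, with 5 of 21 above 0, and -0.01 after LPS, with 10 of 20 above 0. Over all genes the untreated median was -0.01, with 3722 of 7705 above 0, and that after LPS -0.00064, with 3454 of 6913. Scaled by modelled contacts, the untreated median was 0.08 for ISGs and 0.26 for all genes, and that after LPS -0.46 and -0.45, with 0 ISGs higher (0.376% of all genes) and 5 lower (29.4%).

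Contacts over expected at loops present in both lists were compared next. The expected contacts come from the loop caller, given the distance and the coverage of both bins. The median log2 ratio of ISGs was 0.12 for p42 UT over p30 UT (0.18 over all genes), -0.23 for p42 LPS over p30 LPS (-0.11), 0.10 for p30 LPS over UT (0.15) and -0.15 for p42 LPS over UT (-0.15). At loops in all 4 lists the first of these was 0.23 (0.25 over all genes) and the second -0.025 (-0.14), and in equal-size lists the first was 0.22 (0.26). Single ISGs ranged from -0.82 to 0.66 over these comparisons, with an SD over all genes of 0.25 to 0.26. At loops in all 4 lists the all-gene medians for LPS over UT were 0.17 in p30 and -0.22 in p42 cells. The shares by expected contacts given below leave out such shifts of all genes.

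The Ifitm cluster holds Ifitm2, the ISG with the most loops in each list. Its genes encode small membrane proteins that block the fusion of entering viruses. Ifitm2 (start-site bin chr7:140535001-140540000, which also holds the start of Gm45717) had 14 loops untreated and 17 after LPS with p30, and 20 and 16 with p42. Ifitm1 (chr7:140545001-140550000) had 4 loops untreated and 7 after LPS with p30, and 8 and 6 with p42. Ifitm3 (chr7:140590001-140595000) had 7, 10, 9 and 11 in the same order. LPS thus went with more loops of all 3 genes in p30 cells, and in p42 cells with fewer at Ifitm1 and Ifitm2. In the lists as deposited Ifitm3 also had fewer in p42 LPS, 11 against 17 in p42 UT.

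Scaled coverage of Ifitm3 was 2527 reads untreated and 2531 after LPS with p30, and 3792 and 4318 with p42. The p42 values lay above both p30 values, at 1.5-fold (1.43 to 1.57) untreated and 1.71-fold (1.62 to 1.80) after LPS, and the p30 values were nearly equal. Ifitm1 had 1704 reads untreated and 1964 after LPS with p30, and 2690 and 2833 with p42, which gave 1.58-fold (1.49 to 1.67) and 1.44-fold (1.36 to 1.53). At Ifitm2 the folds were 1.22 and 0.96. Scaled by modelled contacts, 0 of 20 ISGs were 1.5-fold higher in p42 than in p30 after LPS, a scaling under which 0.376% of all genes were higher and 29.4% lower.

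The loop from Ifitm2 to the bin at 50 kb, in a bin with exonic sequence of Ifitm3 (chr7:140585001-140590000), had 24 contacts untreated and 21 after LPS with p30, and 82 and 54 with p42. Contacts were 8.84, 7.99, 21.7 and 17.2 times the expected number in the same order. The p42 UT list held 77.4% of the contacts of both untreated lists (95% Wilson interval 68.5 to 84.3), where the expected contacts gave 58.2%, and the p42 LPS list 72% (61.0 to 80.9) of those after LPS, where they gave 54.4%. Both p42 shares lay above those by expected contacts, beyond counting error.

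Another loop of Ifitm2, to an intergenic peak bin at 90 kb, had 39 contacts untreated and 55 after LPS with p30, and 50 and 50 with p42. It was at 20.7 to 29.0 times the expected number, and the p42 share of 56.2% untreated (45.8 to 66.0) lay close to the 54.2% by expected contacts. Ifitm2 and Ifitm3 were joined in all 4 lists, with 15, 17, 31 and 30 contacts, and Ifitm1 and Ifitm3 in p30 LPS with 13 and in p42 UT with 16. Over the 12 loops of the cluster in all 4 lists, there were 263 contacts untreated and 292 after LPS with p30, and 518 and 361 with p42. The p42 share was 66.3% (62.9 to 69.6) untreated, against 58.4% by expected contacts, and 55.3% (51.5 to 59.1) after LPS, against 53.8%. After LPS the interval therefore included the share set by coverage, distance and depth.

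Irgm1 (start-site bin chr11:48760001-48765000) had a block of shared loops far from its start site. In equal-size lists it had 11 loops untreated and 13 after LPS with p30, and 9 and 13 with p42. As deposited, the p42 values were 15 and 13. Of its loops, 8 were in all 4 deposited lists. These 8 led to adjacent bins between 205 and 240 kb away, over Ifi47, another interferon-induced GTPase gene, and the olfactory receptor gene Or2v1. The bin at 230 kb, in an intron of Or2v1 (chr11:48990001-48995000), had 67 contacts untreated and 78 after LPS with p30, and 89 and 57 with p42. These were 45.3, 54.5, 59.0 and 39.6 times the expected number. The bin at 215 kb, which holds the starts of Ifi47 and Or2v1, had 27, 22, 23 and 16 contacts in that order, fewer than the bin at 230 kb in every list.

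Over the 8 loops of Irgm1, contacts were 219 untreated and 230 after LPS with p30, and 258 and 201 with p42, between 16.8 and 20.6 times the expected number. The p42 share was 54.1% untreated (49.6 to 58.5), against 50.9% by expected contacts, and 46.6% after LPS (41.98 to 51.35), against 50.4%. In p42 cells the LPS list held 43.8% of the contacts (39.3 to 48.4), against 48.8% by expected contacts, which lies above the interval, and in p30 cells 51.2% (46.6 to 55.8), against 49.4%. Over all genes, contacts over expected were also lower in p42 LPS than in p42 UT, at a median log2 ratio of -0.22 at loops in all 4 lists. Scaled coverage of the Irgm1 bin was the highest of the ISGs, at 6360 reads untreated and 7521 after LPS with p30, and 6258 and 6821 with p42. Igtp and Irgm2, related GTPase genes that start in 1 bin of the same chromosome, had 1 loop untreated and 2 after LPS with p30, and 0 and 1 with p42 in equal-size lists. Their loop at 10 kb, within Irgm2, had 47 contacts untreated and 56 after LPS with p42, 73 after LPS with p30, and was not listed in p30 UT.

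**Figure D5:**
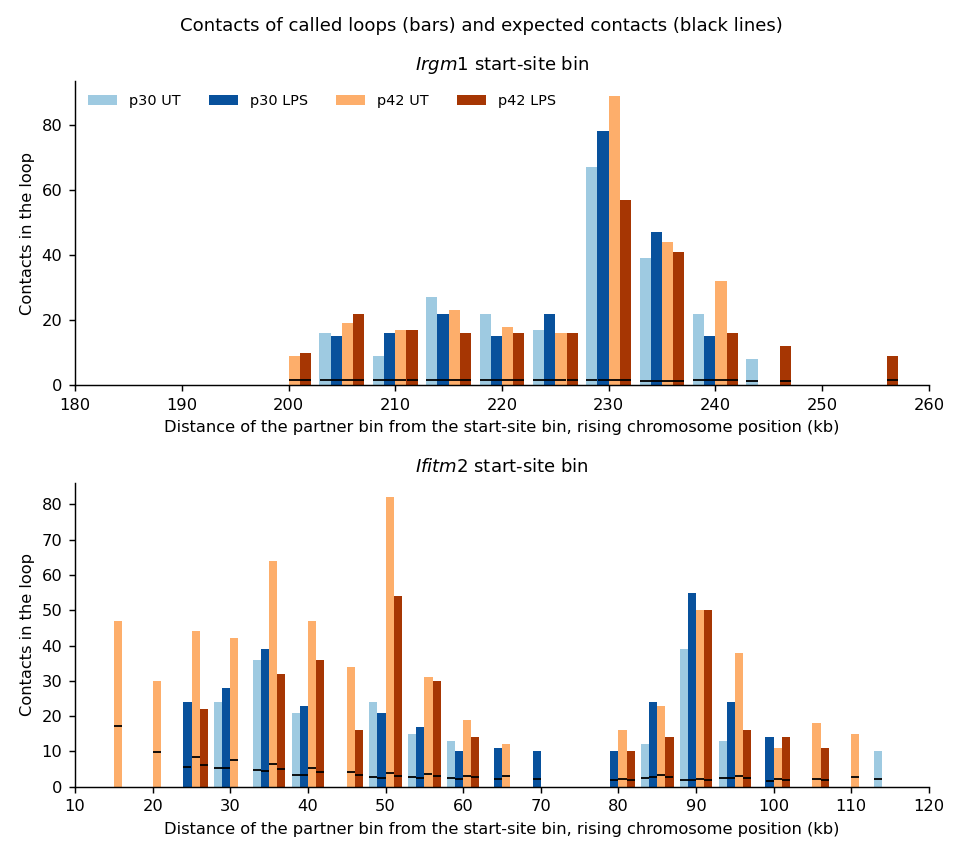
Contacts (bars) and expected contacts (black lines) of the listed loops of Irgm1 (top) and Ifitm2 (bottom), by distance of the partner bin from the start-site bin in kb; a missing bar is a pair that was not listed. The Irgm1 loop at 230 kb has 57 to 89 contacts, and the Ifitm2 loop at 50 kb has 82 and 54 in p42 against 24 and 21 in p30 cells.

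The guanylate-binding protein genes attack the membranes of vacuoles that hold pathogens. Gbp2 (chr3:142325001-142330000) had 1 loop in each untreated list and 2 in each LPS list. Its loop at 20 kb, in exons of Gbp2b, had 26 contacts untreated and 43 after LPS with p30, and 26 and 43 with p42. The LPS share was 62.3% in each isoform (50.5 to 72.8), against 54.8% by expected contacts, which lies within that interval. A loop at 130 kb, in a bin with exons of Gbp5, was listed after LPS alone, with 27 contacts in p30 and 11 in p42 cells, or 15.7 and 6.57 times the expected number. Its p42 share was 28.9% (17.003 to 44.757), against 49.3% by expected contacts, which lies above the interval. Gbp3 and Gbp5 were joined over 65 kb in p42 LPS alone with 11 contacts, and Gbp3 had in p30 LPS a loop of 14 contacts to the next bin at 70 kb. The loops from the Gbp5 end of the cluster to Gbp2 or Gbp3 were thus listed after LPS alone, and Gbp7 had no loop. The partner bins of Gbp2 at 20 and 130 kb and the Gbp5 bin at 65 kb from Gbp3 were not flagged as H3K27ac peaks, and the Gbp3 bin was flagged in p42 LPS.

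Antigen processing genes showed the shortest joined pair. Psmb9 and Psmb8 are inducible proteasome subunits, and Tap1 is a subunit of the peptide transporter. The bin of Psmb9 and Tap1 (chr17:34405001-34410000) and that of Psmb8, 10 kb away, had 82 contacts untreated and 105 after LPS with p30, and 95 and 68 with p42. The p42 share after LPS was 39.3% (32.3 to 46.7), against 48.0% by expected contacts, and in untreated cells 53.7% (46.3 to 60.9) against 48.5%. Psmb9 and Tap1 had 6 loops in p30 UT and 5 in each of the other lists, and Psmb8 had 1, 3, 1 and 1. Scaled coverage was 4992, 4867, 3789 and 4330 reads at the bin of Psmb9 and Tap1 and 4246, 3487, 3355 and 3554 at Psmb8, from p30 UT to p42 LPS. Under the start-site scaling the highest value at both bins was that of p30 UT. At the bin of Psmb9 and Tap1, p30 LPS was 0.975-fold p30 UT (0.937 to 1.01), an interval that includes equal coverage.

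Parp9 and Dtx3l encode partners in a complex of an ADP-ribosyltransferase and an E3 ligase and share a start-site bin (chr16:35755001-35760000). The bin had 3 loops untreated and 3 after LPS with p30, and 2 and 6 with p42, the last value standing apart. It was joined over 65 kb to the start-site bin of Parp14 in all 4 lists, with 21 contacts untreated and 12 after LPS with p30, and 13 and 12 with p42. The p42 share in untreated cells was 38.2% (23.9 to 55.0), against 48.8% by expected contacts, which lies within the interval. Parp14 itself had 1, 2, 2 and 3 loops. Coverage of the Parp9 and Dtx3l bin was 3962, 3798, 3553 and 4044 reads, a narrower range than that of Parp14.

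Signalling genes came next. Usp18 had 4 loops untreated and 6 after LPS with p30, and 5 and 7 with p42. Its loop at 60 kb to the start-site bin of the peroxisomal gene Pex26 had 21, 22, 23 and 25 contacts, 9.32 to 10.7 times the expected number in all groups. Stat2 had 5, 5, 6 and 5 loops, and its loop at 30 kb to the start of Pan2 had 32, 39, 43 and 29 contacts. At the 2 loops of Stat2 in all 4 lists, the p42 share after LPS was 38.4% (29.9 to 47.6), against 52.3% by expected contacts, and 57.0% (48.4 to 65.3) in untreated cells, against 53.0%.

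Trim25 had 4 loops untreated and 3 after LPS with p30, and 5 and 3 with p42, and a loop within its own gene at 20 kb in every list with 37, 25, 37 and 22 contacts. Dhx58, which encodes the RNA sensor LGP2, had 3, 4, 2 and 3 loops, of which those at 80, 85 and 135 kb were in all 4 deposited lists with 11 to 20 contacts. Ifi35 had 2, 2, 4 and 1 loops. Eif2ak2, the kinase PKR, which halts translation upon binding double-stranded RNA, had 1 loop in p30 LPS and p42 UT, and Isg20, an exonuclease gene, had 1, 4, 1 and 0 loops. The coverage of Isg20 was 3088 reads in p30 UT, 4279 in p30 LPS and 2162 in p42 UT and was not listed in p42 LPS.

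The remaining antiviral effector genes had few loops. In equal-size lists Bst2 had 2 loops untreated and 4 after LPS with p30, and 1 and 4 with p42. In the lists as deposited it had 4 in p42 UT as well. Its loop at 10 kb to an intergenic peak bin was listed after LPS alone, with 57 contacts in p30 and 62 in p42 cells, or 1.80 and 2.30 times the expected number. Rsad2 and its neighbour Cmpk2, a mitochondrial nucleotide kinase gene, each had 1 loop, in p42 LPS alone. That of Rsad2 led 15 kb into the exons of its own gene with 34 contacts, and that of Cmpk2 led 50 kb away to the start of Rnf144a with 12.

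Isg15 was joined over 30 kb to the start of Klhl17 in p42 cells alone, with 13 contacts untreated (outside the equal-size list) and 16 after LPS. Ifi27 had a loop of 20 contacts in p42 LPS and Xaf1 one of 9 contacts in p30 LPS. Oasl1 had a loop within its own gene at 15 kb with 25 contacts in p30 UT and 29 in p42 UT, and none after LPS. Mx1, a dynamin-like GTPase gene, had 1 loop in p30 UT, and Mx2 1 in p30 LPS and 1 in p42 UT. Oas2 and Ifit2 each had 1 loop, in p30 UT alone, with 9 and 10 contacts. A pair missing from another list has no contact number there, so that these presences and absences are not differences in contacts.

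Genes upstream of the ISGs were compared as a list of 28: ligands, receptors, kinases, transcription factors, sensors, adaptors and inhibitors. Of these 25 had promoter loops, 20 in all 4 equal-size lists, and the interferon genes Ifnb1 and Ifna4 and the factor Irf8 had none. At a ratio of 1.5, coverage after LPS was higher at 2 of 22 in p30 cells (the kinase Tyk2, 1.74-fold, and Socs3, a feedback inhibitor, 1.56-fold) and at 1 of 22 in p42 cells (Irf9, the partner of STAT2, 1.72-fold), with 0 lower in either, where 1.21% and 1.36% of all genes were higher. Medians of the log2 ratio were 0.22 in p30 and 0.12 in p42 cells, against -0.01 over all genes in both.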

How the data were processed

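The authors made 2 H3K27ac HiChIP libraries per group. By their methods, BWA-MEM 0.7.17 aligned the reads to mm39, pairtools found ligation events and dropped duplicates, and FitHiChIP called loops in 5 kb bins at a q-value under 0.01. The 4 lists, 1 per group, carry no header lines, so that columns were read in FitHiChIP's order; how replicates were pooled is not given in the sources used here. The deposited contacts are raw counts of ligation products per bin pair. The expected count, deposited by the caller, follows from distance and coverage, the deposited contact probability is a fraction, and the q-value is the caller's adjusted p-value. Coverage and the H3K27ac peak flag were deposited per bin. As the caller corrects for coverage and lists significant pairs alone, part of a difference can be removed, and a pair that is not listed has no value.

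Start sites were those of the canonical transcripts of GENCODE M39 (GRCm39, the assembly behind mm39; all 21 chromosome names matched and 0 loops lay past a chromosome end). The total of modelled contacts, expected count over probability, was 17976716 untreated and 14503330 after LPS with p30, and 18999991 and 15831583 with p42, the depth behind these lists. Coverage was divided by 1.01, 0.978, 1.29 and 0.783 in that order. Lists of equal size kept the 78591 loops with the smallest q-values. Differences of at least 3 loops or 1.5-fold were counted beside the share over all genes. Genes printed with values were those of clustered families, the 12 ISGs with the most loops, those past a threshold the same way in both isoforms or treatments, and those without loops by name, and the others past a threshold or in few lists were named after their values were seen. Intervals are 95% Wilson or Poisson intervals and cover counting error only. The members, gene lists and thresholds were chosen with earlier results of these data known. The counting was tested on simulated data. Python 3.11.15 and pandas 2.3.3 were used. Sequences and motifs were read from the GRCm39 genome and from RefSeq promoter windows (GRCm38.p6). Alternatives covered list size, neighbouring bins, a q-value under 1e-05, loops of at least 20 kb, other thresholds and other scalings, and for contacts over expected, at least 10 contacts or loops in all 4 lists.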

Additional observations from a re-analysis of the deposited data

Results flagged for a closer look

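For 3 ISGs the difference in promoter loops after LPS had opposite signs in the isoforms and lay at least 3 loops apart, which was so for 9.09% of the 33 ISGs with loops and for 17.9% of all genes with loops. This difference between isoforms was not tested. At Ifitm2 it was 3 loops more after LPS in p30 and 4 fewer in p42 cells, 7 loops apart. Ifitm1 had 3 more in p30 and 2 fewer in p42 cells, 5 apart, and Isg20 3 more and 1 fewer, 4 apart. These sizes hold for the equal-size lists. As deposited, p42 cells had 23 loops untreated and 16 after LPS at Ifitm2, 14 and 6 at Ifitm1, and 4 and 0 at Isg20. The p30 values as deposited were 15 and 19, 4 and 8, and 1 and 4.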

How the results depend on the processing

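No paired analysis was possible because each group has 1 pooled list. Counts below are of ISGs, each with the share of all genes called the same way in parentheses. For p42 UT against p30 UT, loops were higher at 11 (46.6%) in the lists as deposited, higher at 5 (21.1%) and lower at 3 (14%) with 1 bin on each side, higher at 5 (34.5%) at a q-value under 1e-05, higher at 4 (22.4%) and lower at 1 (16.1%) at 2 loops, and higher at 1 (3.82%) at 5 loops. Coverage was lower at 0 scaled by peak bins (1.34%) or modelled contacts (0.311%), lower at 7 (13.5%) at the lower fold threshold, and higher at 0 (0.324%) and lower at 0 (0.117%) at 2-fold. For p42 LPS against p30 LPS, loops were lower at 2 (20.6%) as deposited, higher at 7 (14%) and lower at 7 (20%) with 1 bin on each side, higher at 1 (2.2%) at a q-value under 1e-05, lower at 2 (24.2%) at 2 loops, and higher at 0 (1.87%) and lower at 0 (4.52%) at 5 loops. Coverage was higher at 1 (1.62%) by peak bins, higher at 0 (0.376%) and lower at 5 (29.4%) by modelled contacts, and higher at 0 (0.448%) at 2-fold. For p30 LPS against UT, loops were higher at 2 (10.7%) at a q-value under 1e-05, 8 (20.7%) at 2 loops and 0 (3.54%) at 5 loops, and coverage at 4 (8.15%) by modelled contacts, 4 (8%) at the lower fold threshold and 0 (0.0694%) at 2-fold. For p42 LPS against UT, loops were higher at 2 (0.121%) and lower at 10 (51%) as deposited, higher at 8 (10.7%) and lower at 1 (19.1%) with 1 bin on each side, higher at 0 (0.11%) and lower at 6 (37%) at a q-value under 1e-05, lower at 1 (9.87%) from 20 kb, lower at 4 (23.5%) at 2 loops, and higher at 0 (0.831%) and lower at 0 (3.08%) at 5 loops. Coverage was higher at 3 (0.701%) by peak bins, 0 (0.0674%) by modelled contacts, 10 (6.91%) at the lower fold threshold and 0 (0.0809%) at 2-fold. The median log2 contacts over expected of p42 over p30 was 0.23 untreated at loops in all 4 lists and 0.22 in equal-size lists, and -0.025 after LPS at loops in all 4 lists. Alternatives chosen after seeing the data gave median log2 coverage ratios, by peak bins and by modelled contacts, of -0.11 and 0.084 (p42 over p30, untreated), -0.12 and -0.46 (after LPS), 0.26 and 0.47 (LPS over UT, p30) and 0.14 and -0.18 (p42). With bins counted once the ratio was 0.027 for p42 over p30 after LPS and 0.35 for LPS over UT in p42 cells. With 1 bin on each side, 4 ISGs (6.28%) had loops in LPS lists alone and 1 (5.53%) in p42 lists alone. The sign thus turned for p42 over p30 in both treatments and for LPS in p42 cells; apart from the scalings' own shift of all genes, the cause was not tested. Requiring 10 contacts left all 4 medians of contacts over expected within the margin used.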
